A study of Mus musculus with 6 samples.

Results

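A set of 9 genes that mark endothelial cells of most vessel types was followed across the 6 libraries, namely Pecam1, Emcn, Cd34, Egfl7, Ecscr, Robo4, Clec14a, Mcam and Rasip1. They were chosen by name, as known endothelial surface and secreted genes, when earlier results of these data were already known. All 9 were found among the 24520 gene identifiers of the table, and all 9 were among the 12748 genes tested. Rasip1 encodes an intracellular protein and is thus an endothelial identity gene but not a surface or secreted one. The RNA came from lung endothelial cells of wild-type mice, isolated by FACS, with 3 libraries at an age of 18 months (titled Aged) and 3 at 8 months (titled mAdu). The ages were the sole difference the labels give, and the sources used here do not name the sort markers. Whether the 3 libraries of an age came from separate mice is not stated, so p-values refer to the spread among these libraries, part of which may be technical. Values are TPM, transcript abundance per length as a share of the whole library, and keep no read depth, so no counting error can be given.

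Endothelial cells line the blood and lymph vessels. The products of these genes hold neighbouring cells together, cover the luminal face with charged glycoproteins, receive signals from the matrix and from guidance molecules, and pass signals to the cytoskeleton during lumen formation. Several of the proteins, CD31 (Pecam1), CD34 and CD146 (Mcam) among them, are used to recognise or sort endothelial cells. Their genes are commonly described as targets of ETS transcription factors, which read the core sequence GGAA in DNA.

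Egfl7 carries the microRNA gene Mir126a inside its span (GRCm38 chromosome 2, 26591357 to 26591429, plus strand). The mature sequence of its 3p arm, from RefSeq on GRCm38.p6, is shown because this microRNA is the best known product of the locus besides the protein. The seed, bases 2 to 8, is in capitals.
mmu-miR-126a-3p: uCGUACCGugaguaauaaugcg

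RefSeq promoter windows on GRCm38.p6, 250 bases before to 50 after an annotated start, were found for 7 of the 9 members (all but Pecam1 and Ecscr), with 9 windows in all because Egfl7 has 3. The stretches of 3 of these windows that lie upstream of the annotated exons are shown, as examples of upstream sequence with several copies of the ETS core. GGAA, or TTCC where the core lies on the other strand, is in capitals.
Cd34 (plus strand, chr1:194938571-194938818): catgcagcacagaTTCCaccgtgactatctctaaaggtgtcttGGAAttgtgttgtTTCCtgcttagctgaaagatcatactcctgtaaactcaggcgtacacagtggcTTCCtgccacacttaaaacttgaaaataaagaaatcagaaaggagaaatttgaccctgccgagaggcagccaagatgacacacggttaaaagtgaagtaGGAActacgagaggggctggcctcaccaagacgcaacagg
Clec14a (minus strand, chr12:58269291-58269508): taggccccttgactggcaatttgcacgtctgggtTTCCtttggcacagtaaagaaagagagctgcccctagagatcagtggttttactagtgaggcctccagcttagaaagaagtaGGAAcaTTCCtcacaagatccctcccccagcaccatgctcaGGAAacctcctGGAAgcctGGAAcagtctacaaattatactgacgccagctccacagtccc
Emcn (plus strand, chr3:137340828-137341066): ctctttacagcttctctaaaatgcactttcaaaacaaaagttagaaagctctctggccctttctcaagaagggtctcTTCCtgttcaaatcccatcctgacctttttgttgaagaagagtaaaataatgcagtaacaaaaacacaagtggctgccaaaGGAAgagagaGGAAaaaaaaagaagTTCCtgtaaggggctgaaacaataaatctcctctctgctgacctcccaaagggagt

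GGAA on either strand was found in 9 of the 9 member windows and in 96.0% of all 32851 windows of 300 bases. At least 4 copies were found in 7 of the 9 windows, from 6 genes, against 46.3% of all windows. AGGAAG, which contains GGAA, was found on either strand in 6 of the 9 windows against 35.4% of all, and GATA, the core read by GATA factors, in 6 of 9 against 57.9%. A match of letters is a description of the window and not a binding site. The windows differed in CpG dinucleotides, the sites of DNA methylation. Emcn and Robo4 each had 2, Clec14a had 5, Cd34 had 7 and Rasip1 had 9, whereas Mcam had 29 and the 3 Egfl7 windows had 5, 8 and 31. The median over all windows was 7, with quartiles at 3 and 20.

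As a group the 9 genes were among the abundant transcripts of these cells. Their TPM summed to between 8865 and 10491 per library, or 1.01% to 1.21% of the table. Egfl7 alone made up 48.2% to 57.9% of that sum. Its mean of 5135 TPM over the 6 libraries ranked 12 among the 12748 tested genes. Pecam1 at 1352 TPM ranked 68 and Clec14a at 883 TPM ranked 112. The lowest member, Rasip1, at 101 TPM, still lay above 88.2% of the tested genes. In order of mean TPM the genes were Egfl7, Pecam1, Clec14a, Cd34, Emcn, Ecscr, Robo4, Mcam and Rasip1. Egfl7 and Pecam1, Pecam1 and Clec14a, and Mcam and Rasip1 were neighbours whose ranges over the 6 libraries did not overlap. The ranges of all other neighbours overlapped, although Clec14a lay above Cd34, and Robo4 above Mcam, in 6 of 6 libraries.

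**Figure D1:**
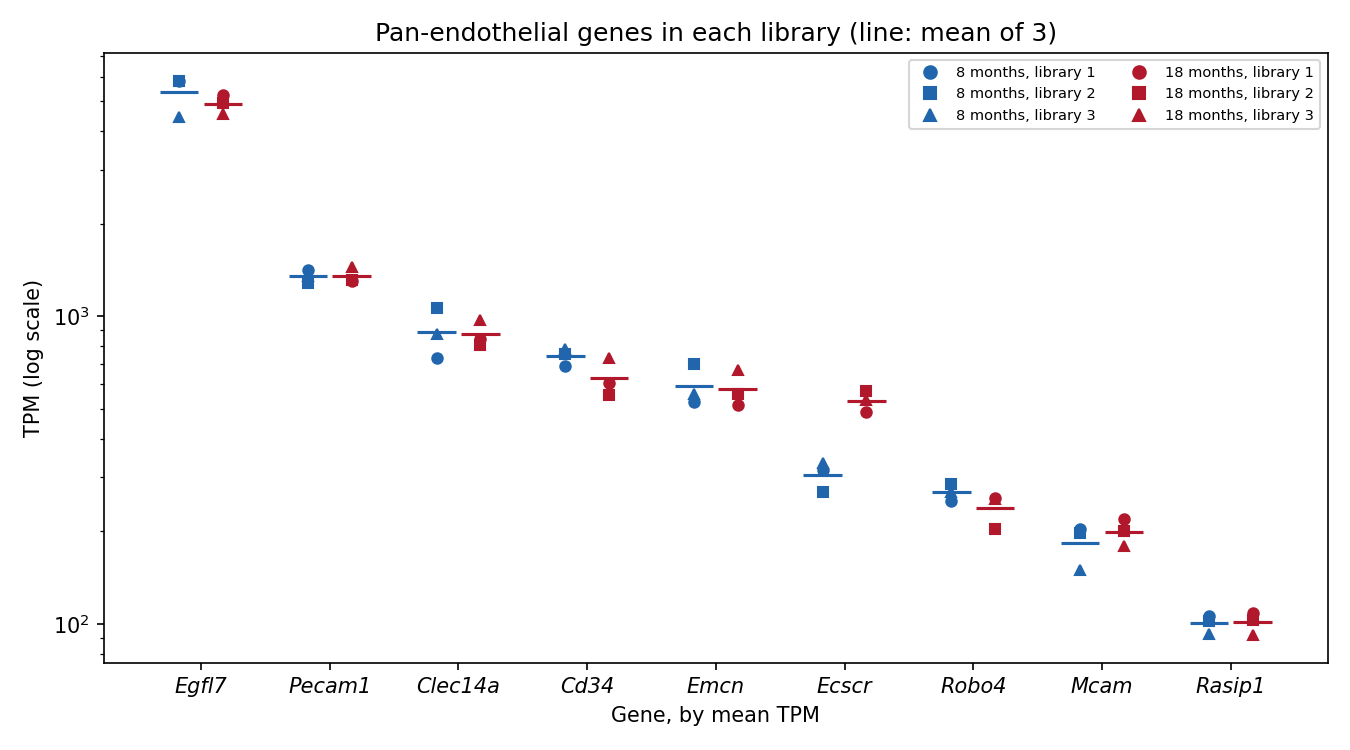
TPM on a log axis for each of the 9 genes, ordered by mean level, with 1 point per library (blue, 8 months, and red, 18 months; the symbol gives the library number) and a line at the mean of 3. In Ecscr the red points, 487 to 572 TPM, all lie above the blue ones, 268 to 333 TPM, while in the other 8 genes the ages overlap.

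Between 8 and 18 months 8 of the 9 genes had overlapping libraries, and 1, Ecscr, did not. Ecscr encodes an endothelial single-pass membrane protein that regulates chemotaxis and apoptosis. It lay at 487, 572 and 533 TPM in the older libraries, compared with 316, 268 and 333 TPM in the younger ones. The lowest 18-month library was above the highest 8-month library. The means were 531 ± 42.5 TPM (SD, n = 3) and 306 ± 33.6 TPM, a 1.74-fold difference. On the log2(TPM + 1) scale the difference was 0.80 with an SE of 0.11 and a 95% interval from 0.53 to 1.06, and it did not pass the threshold of 0.05 over all tested genes (limma adjusted p = 0.0786, unadjusted p = 0.000131). By unadjusted p Ecscr ranked 21 among the 12748 genes.

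Of the 9 members, 0 passed limma's test over all genes, against 0.0235% of all tested genes, 0.00784% as higher and 0.0157% as lower. At an unadjusted p under 0.05 there was 1 member, Ecscr, against 13.4% of all tested genes, 3.45% as higher and 9.99% as lower. Ecscr was also the 1 member whose ages did not overlap, against 18.7% of all tested genes, 4.48% as higher and 14.2% as lower. With library weights, which give less weight to libraries that deviate more, Ecscr passed (limma adjusted p = 0.0264), 1 of 94 genes that did. Over all 18 alternatives its log2 difference lay between 0.71 and 0.90 and its limma adjusted p between 0.0264 and 0.264. With each library left out in turn the difference was 0.71 to 0.86, and it did not pass in any of these 6 fits.

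**Figure D2:**
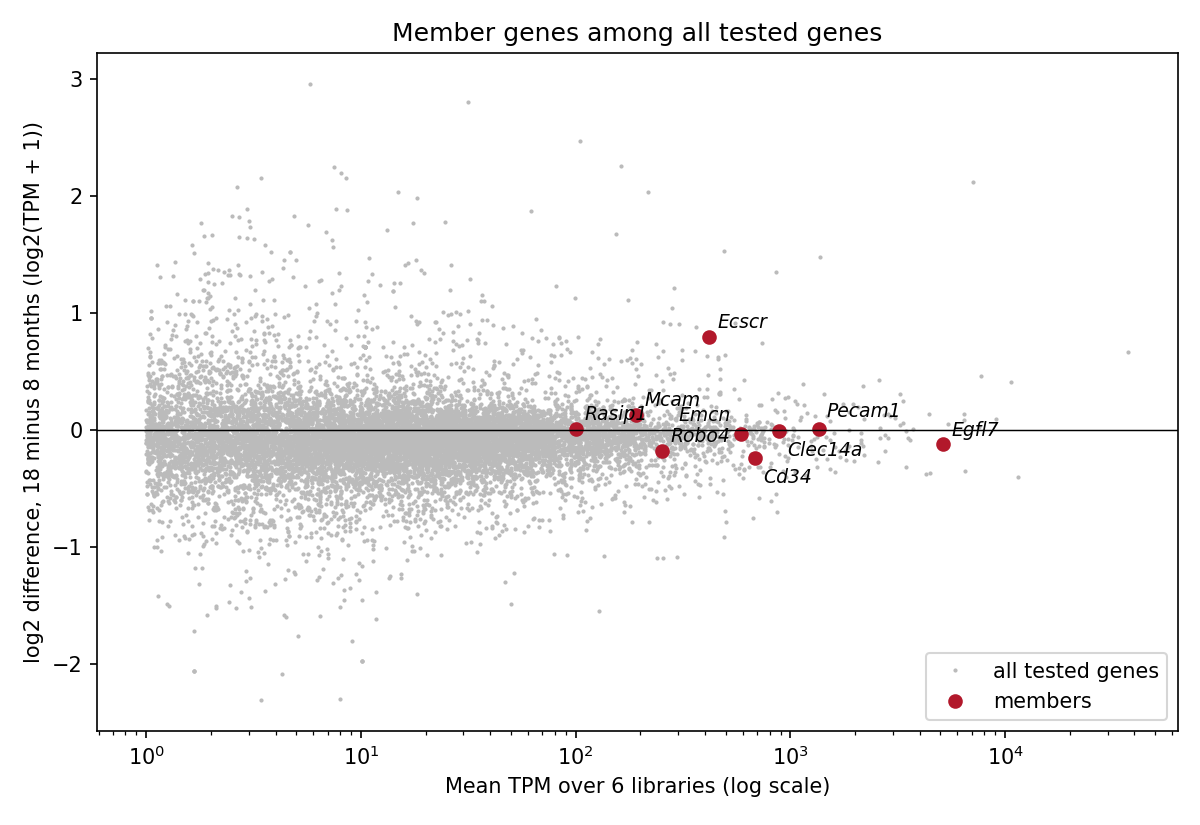
Log2 difference between 18 and 8 months (positive is higher at 18 months) against mean TPM on a log axis, for the 12748 tested genes (grey) and the 9 members (red). Ecscr lies at 0.80, and the other 8 members lie between -0.24 and 0.13.

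The higher Ecscr was also seen relative to each of the other members within a library, a ratio that does not depend on how libraries are scaled. Ecscr divided by Pecam1 was 0.373, 0.435 and 0.370 at 18 months and 0.224, 0.209 and 0.246 at 8 months. The 3 ratios at 18 months all lay above those at 8 months. The same held with each of the 8 other genes in the denominator. The closest approach was with Mcam, where the lowest 18-month ratio was 2.228 and the highest 8-month ratio 2.226. These ratios share the Ecscr values and are not independent of each other. Because the differences of the other 8 genes were much smaller, the ratios largely repeat the Ecscr difference and are no separate support for it.

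**Figure D3:**
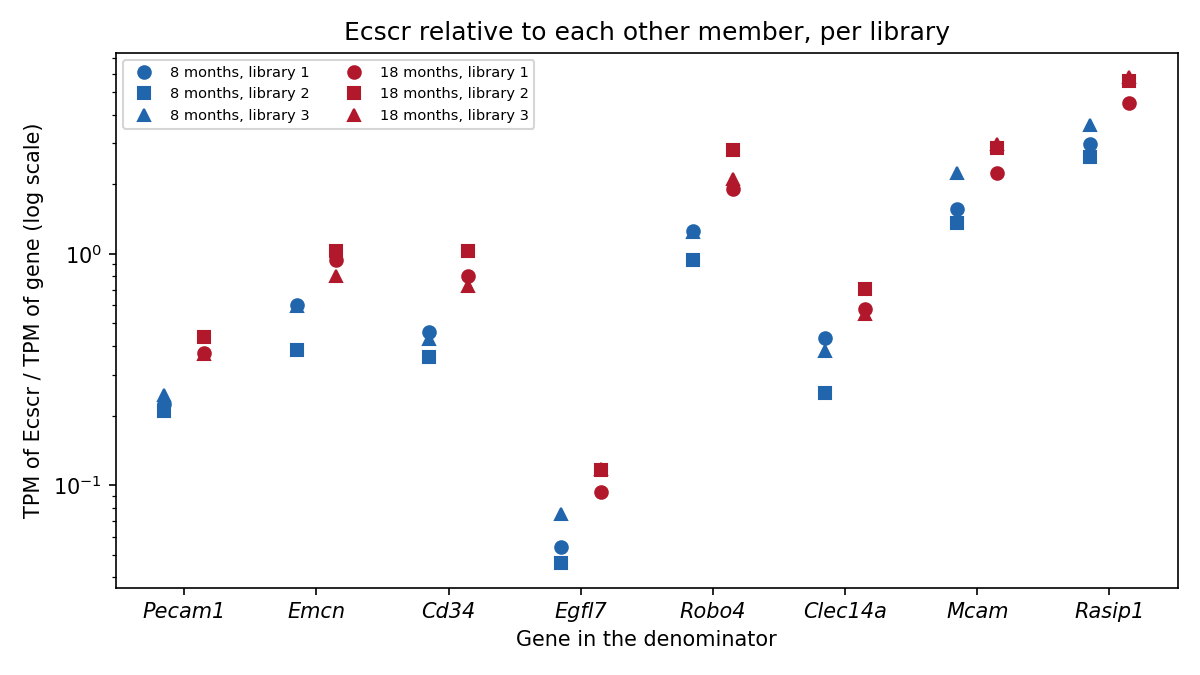
TPM of Ecscr divided by TPM of each other member, on a log axis, 1 point per library (blue, 8 months, and red, 18 months). For every denominator the 3 red points lie above the 3 blue ones, with Pecam1 at 0.370 to 0.435 against 0.209 to 0.246.

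Ecscr lies on chromosome 18 (35713086 to 35722356, minus strand, GRCm38), and 1700066B19Rik on the opposite strand shares 62 exonic bases with it. That gene lay below 1 TPM in every library, between 0.289 and 0.908 TPM. Of the 31-base sequences in Ecscr transcripts, 2.44% also occur in transcripts of other genes. Its longest annotated transcript has 1114 bases, the shortest among the members. When GC content and transcript length were corrected for, the Ecscr difference was 0.86 (limma adjusted p = 0.0825).

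The 2 adhesion molecules of the immunoglobulin family had overlapping ages. Positions given for genes are on GRCm38. Pecam1 (chromosome 11, 106654217 to 106750628, minus strand), which forms homophilic contacts at endothelial junctions and is also present on leukocytes and platelets, lay at 1306, 1314 and 1442 TPM at 18 months, compared with 1411, 1286 and 1355 TPM at 8 months. Its highest and its lowest library differed 1.12-fold, the narrowest range among the 9 genes. The log2 difference was 0.0032 with a 95% interval from -0.22 to 0.23, so that a difference in either direction up to about 1.17-fold lies within the interval (limma adjusted p = 0.995). Mcam (chromosome 9, 44134469 to 44142727, plus strand) encodes CD146, a receptor for laminins with the alpha-4 chain that pericytes and smooth muscle cells also carry. It lay at 219, 200.4 and 179.7 TPM at 18 months, compared with 203, 198 and 149.6 TPM at 8 months. The third 8-month library was the lowest, and without it the log2 difference went from 0.13 to -0.0099. The 95% interval of the difference was -0.19 to 0.45 (limma adjusted p = 0.754).

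Both sialomucins, heavily glycosylated proteins of the luminal face, lay slightly lower on average at 18 months, and neither passed. Cd34 (chromosome 1, 194938819 to 194961279, plus strand), which serves as a ligand of L-selectin where it is suitably glycosylated, lay at 607, 556 and 731 TPM at 18 months, compared with 690.4, 751 and 780.2 TPM at 8 months. Of the 18-month libraries 2 were below all 8-month libraries and the third was among them. Its log2 difference of -0.24 had a 95% interval from -0.52 to 0.046, after Ecscr the smallest unadjusted p among the members (limma adjusted p = 0.46, unadjusted p = 0.0895). The difference kept its sign in all 18 alternatives, between -0.35 and -0.10. Emcn (chromosome 3, 137341067 to 137432185, plus strand), endomucin, which limits leukocyte adhesion, lay at 516, 559 and 666 TPM at 18 months, compared with 526, 701 and 559 TPM at 8 months. The libraries of the 2 ages were interleaved, with a log2 difference of -0.034 (95% interval -0.37 to 0.30, limma adjusted p = 0.952). The sign of that difference was positive with median-of-ratios scaling, quantile normalization, library weights and the GC and length correction.

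Among the receptors, Clec14a (chromosome 12, 58264720 to 58269290, minus strand), a C-type lectin-domain protein that binds multimerin-2, lay at 846, 809 and 973 TPM at 18 months, compared with 732, 1066 and 872 TPM at 8 months. The 8-month libraries spanned the whole 18-month range. Its log2 difference was -0.011 (95% interval -0.36 to 0.34, limma adjusted p = 0.987), and its within-age SD of 0.215 on the log2 scale was the largest of the 9 genes. Robo4 (chromosome 9, 37401897 to 37415115, plus strand), the roundabout receptor of endothelial cells, linked to vessel stability, lay at 256, 203 and 254 TPM at 18 months, compared with 250.3, 284 and 269 TPM at 8 months. The second 18-month library was the lowest of the 6. The log2 difference was -0.18 (95% interval -0.45 to 0.093, limma adjusted p = 0.561), and with the GC and length correction it was 0.018.

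Egfl7 (chromosome 2, 26580014 to 26593120, plus strand), a secreted protein of the endothelial matrix that is involved in tube formation, lay at 5232, 4932 and 4535 TPM at 18 months, compared with 5825, 5833 and 4454 TPM at 8 months. The first and second 8-month libraries were the highest and the third was the lowest of all 6. The log2 difference was -0.12 (95% interval -0.47 to 0.22, limma adjusted p = 0.781), and it was 0.042 with the GC and length correction. Mir126a, read from 73 bases inside this gene, lay at 1586, 841 and 347 TPM at 18 months, compared with 436, 976 and 233 TPM at 8 months. These values spread more than those of Egfl7, and the hairpin is shorter than the 100 bp reads, so the TPM of Mir126a do not measure the mature microRNA shown above. Mir126b, annotated on the opposite strand at the same place, was listed at 0 in every library. Agpat2, which overlaps Egfl7 on the opposite strand with 64 exonic bases, averaged 109 TPM at 18 months and 115 at 8 months.

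Rasip1 (chromosome 7, 45627488 to 45639093, plus strand), an effector of the small GTPases Ras and Rap1 that is needed for blood vessels to form a lumen, lay at 108, 103 and 92.0 TPM at 18 months, compared with 106, 102 and 92.6 TPM at 8 months. The third library was the lowest at both ages. The log2 difference was 0.010 (95% interval -0.23 to 0.25, limma adjusted p = 0.983). Its transcript has the highest GC content of the members, 63.6%, and with the GC and length correction the difference was 0.37 without passing (limma adjusted p = 0.294). Of the 31-base sequences in its transcript 38.0% also occur in transcripts of other genes, and 18.8% occur in transcripts of Izumo1, a gene that averaged 0.945 TPM at 18 months and 0.659 at 8 months. For the other members that share was between 0% (Robo4, Clec14a) and 7.52% (Egfl7).

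Of the 9 log2 differences, 4 were above 0 and 5 below, with a median of -0.011, against 33.8% above and 66.2% below among all tested genes, whose median was -0.079. The split of the members depended on the scaling. It was 6 to 3 with median-of-ratios scaling and with quantile normalization, and 8 to 1 with the GC and length correction. The median within-age SD of the members was 0.156 on the log2 scale, against 0.14 for the 1488 tested genes within the members' range of mean TPM. The median size of the difference, regardless of sign, was 0.12 for both.

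**Figure D4:**
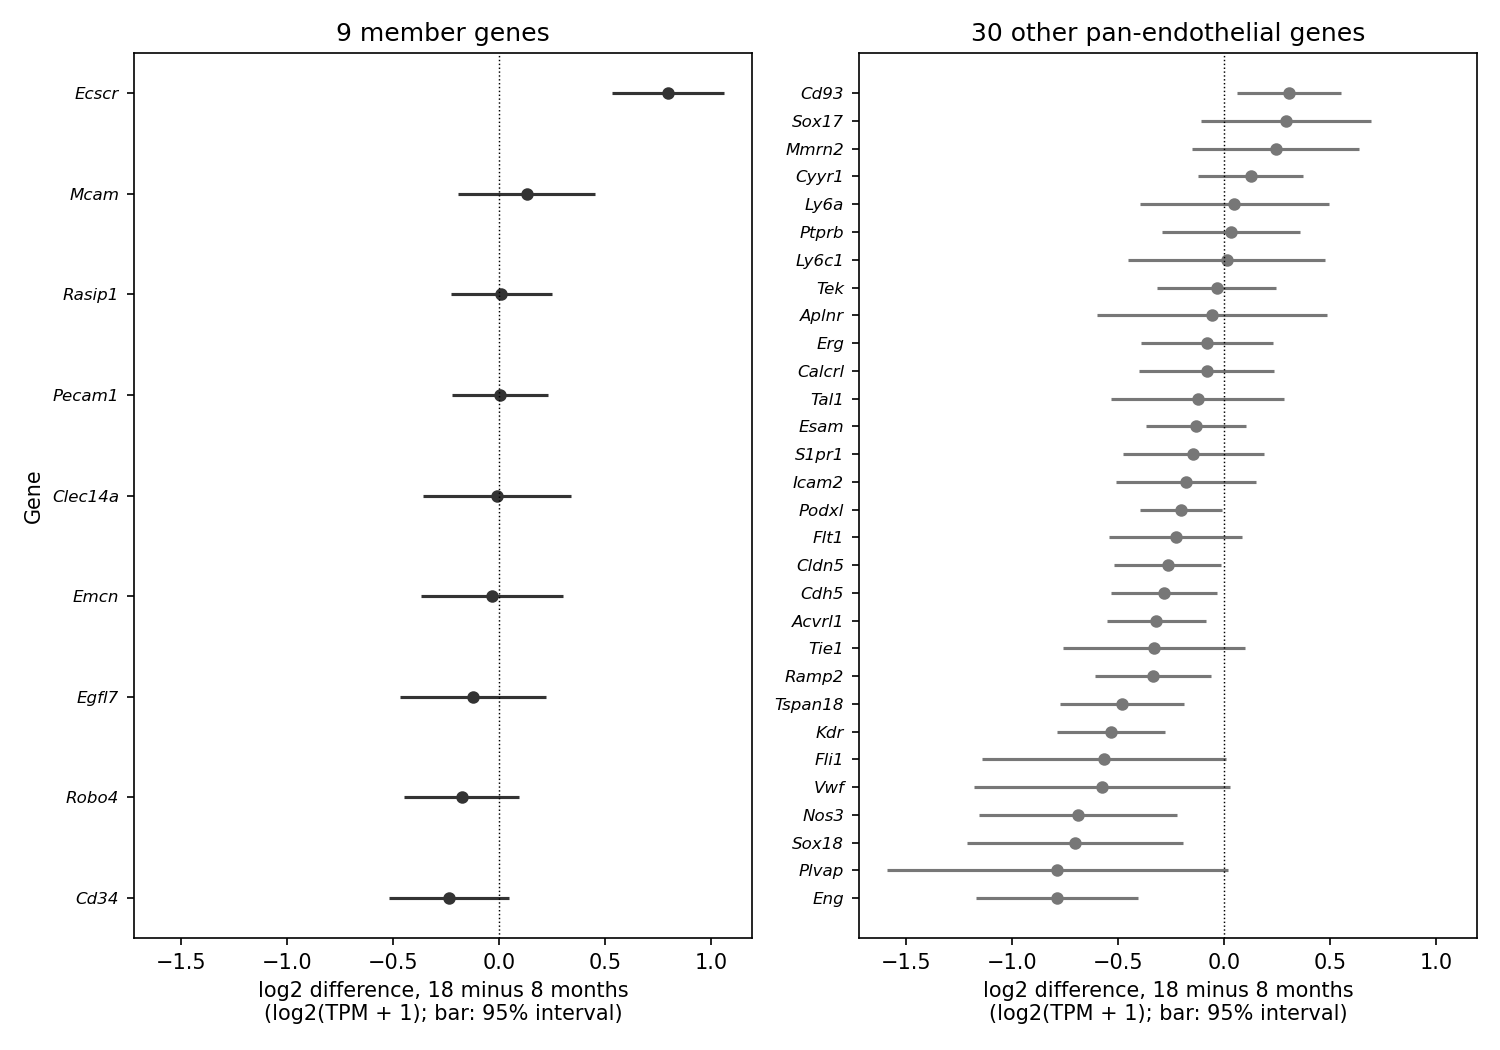
Log2 difference between 18 and 8 months (points) with 95% intervals (bars) for the 9 members (left) and 30 other pan-endothelial genes (right), on the same axis. Ecscr has the highest value of the members, 0.80, and Cd34 the lowest, -0.24, and on the right Eng and Kdr lie at -0.79 and -0.54.

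A list of 30 other genes of endothelial identity had 7 higher and 23 lower differences and a median of -0.19. Among all tested genes 66.2% were lower, with a median of -0.079. Of the 30, 0 passed limma's test over all genes. An unadjusted p under 0.05 was seen for 11, 1 higher and 10 lower, against 13.4% of all tested genes, 3.45% as higher and 9.99% as lower. With library weights 1 passed. Eng, endoglin, a co-receptor for BMP9 and TGF-beta, lay at 454, 307 and 350.4 TPM at 18 months, compared with 562, 733 and 615 TPM at 8 months (limma adjusted p = 0.145). Kdr, the main VEGF receptor, lay at 402, 331 and 385 TPM against 520.1, 509 and 591 TPM (limma adjusted p = 0.144). In both genes the ages did not overlap, with the 18-month libraries lower. Tspan18 had a log2 difference of -0.48 and Nos3, the endothelial nitric oxide synthase, of -0.69, neither past the threshold (limma adjusted p = 0.194 and 0.208). The genes with the highest mean TPM in this list were Ly6a, Ly6c1, Calcrl, Icam2, Cldn5, Esam, S1pr1 and Ramp2. Their log2 differences lay between -0.34 (Ramp2) and 0.047 (Ly6a), with limma adjusted p from 0.283 to 0.992. The median of the list was -0.095 with median-of-ratios scaling, with 11 higher and 19 lower, and -0.063 with the GC and length correction, again with 11 and 19.

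Genes whose products bind or act with the members were taken as a list of 31, of which 25 were tested, with 6 higher and 19 lower and a median of -0.095. The share lower among all tested genes was 66.2%, with a median of -0.079. By limma 0 passed and 4 had an unadjusted p under 0.05, all lower, against 13.4% of all tested genes, 9.99% as lower. These were Kdr, Cdh5, Rap1b and Podxl. Of these, Kdr, Cdh5 and Podxl are also in the list of other endothelial identity genes and were counted there too. Cdh5, the cadherin of endothelial junctions, lay at 735 ± 79.8 and 892 ± 29.8 TPM (SD, n = 3), at 18 and 8 months. Podxl, the sialomucin of the same family as Cd34, lay at 266 ± 12.4 and 307 ± 7.04 TPM. The ages did not overlap in 3 of the 25 tested genes, Kdr, Cdh5 and Podxl, all lower. Among all tested genes that share was 18.7%, 14.2% as lower. The direction of this list turned with the processing, with 13 higher and 12 lower under median-of-ratios scaling and 15 and 10 under the GC and length correction. Mmrn2, multimerin-2, the ligand of Clec14a, lay at 136 ± 13.1 and 117 ± 27.9 TPM, at 18 and 8 months. Lama4, the laminin chain bound by Mcam, lay at 10.2 ± 0.526 and 10.7 ± 3.69 TPM. Around Rasip1, Heg1 lay at 136 ± 19.8 and 145 ± 13.1 TPM.

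Among 26 ETS and other endothelial transcription factors 24 were tested, with 8 higher and 16 lower and a median of -0.10. That split is near the 66.2% lower among all tested genes, whose median was -0.079. By limma 0 passed and 4 had an unadjusted p under 0.05, against 13.4% of all tested genes. These were Elf4, Sox18 and Klf2 on the lower side and Hey1 on the higher. Some of these factors, Sox18, Fli1 and Erg among them, are also in the list of other endothelial identity genes. Sox18, a factor of vessel and lymphatic development, lay at 152, 105 and 121 TPM at 18 months, compared with 189.8, 281 and 158 TPM at 8 months, without overlap (limma adjusted p = 0.228). Of the ETS factors, Ets1 lay at 219 ± 29.6 and 218 ± 26.4 TPM (SD, n = 3), Fli1 at 80.2 ± 29.0 and 116 ± 24.2 TPM and Erg at 57.6 ± 5.06 and 61.3 ± 9.71 TPM, at 18 and 8 months. The list was split 12 to 12 with median-of-ratios scaling and 13 higher to 11 lower with the GC and length correction.

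The members are shared by vessel types, whose own markers were read beside them. These lists share some genes with each other and with those above, such as Kdr among the aerocyte markers, so their counts are not independent. For scale, 66.2% of all tested genes were lower and 13.4% had an unadjusted p under 0.05. Of 12 tested aerocyte markers 12 were lower, with a median of -0.63, and 11 had an unadjusted p under 0.05. Their summed TPM was 4625 to 5208 at 18 months and 5801 to 7505 at 8 months. Venous markers were lower in 9 of 9, with a median of -0.77, and 4 had an unadjusted p under 0.05. Lymphatic markers were lower in 5 of 5 tested, with a median of -0.52, and 2 had an unadjusted p under 0.05. Among the 5, Pdpn and Mmrn1 averaged 1.04 and 1.07 TPM, just above the filter of 1 TPM, and Lyve1 averaged 809 TPM. Prox1, at or below 0.179 TPM in every library, was below that filter. The cells behind these values were not tested. Without the second 8-month library the venous median was -0.40, and with median-of-ratios scaling 8 of 9 venous and 4 of 5 lymphatic markers were lower. General capillary markers were higher in 8 of 10, with a median of 0.12, and arterial markers in 7 of 10, with a median of 0.10. An unadjusted p under 0.05 was seen for 2 general capillary markers as higher, and for 2 arterial markers as higher and 1 as lower. Both medians moved with single libraries. With each library left out in turn the general capillary median lay between 0.052 (without the first 8-month library) and 0.24 (without the second), and without the first 18-month or the third 8-month library 6 of 10 were higher. The arterial median lay between 0.030 (without the third 18-month library) and 0.23 (without the second), and without the first 18-month library 5 of 10 were higher. For comparison, 6 of 10 commonly used reference genes were higher and 4 lower, with a median of 0.031, and this split had no stable direction: with quantile normalization 5 were higher, with median-of-ratios scaling 8, and without the third 8-month library 4. By limma 0 genes of these lists passed over all genes in the fit without weights on all 6 libraries. With library weights the aerocyte markers Apln and Tbx2 and the venous markers Cpe and Slc6a2 passed as lower, and without the first 8-month library the lymphatic marker Ccl21a did. In sorted cell pools a smaller number of cells of a type and less RNA per cell cannot be told apart.

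The 6 lists of markers of other cell types below each had a summed TPM above 0 in every library. Of the genes found, 0 were at 0 in all 6 libraries, but single genes, Csf1r among them, were at 0 in some. Smooth muscle and pericyte markers, cells that share Mcam, summed to 36.4 to 41.7 TPM over 12 genes at 18 months and to 58.1 to 79.8 TPM at 8 months, with 7 of 7 tested genes lower and a median of -0.70. By limma 5 of the 7 had an unadjusted p under 0.05, and only 4 smooth muscle and pericyte genes averaged at least 5 TPM. Fibroblast markers, cells that can share Cd34, summed to 19.9 to 27.4 TPM over 10 genes against 31.4 to 46.9 TPM. Of these, 9 of 9 tested genes were lower, 3 of them at an unadjusted p under 0.05 by limma, with a median of -0.42. Without the third 18-month library 7 of 9 fibroblast genes were lower, and with median-of-ratios scaling 8 of 9. Only 2 of them averaged at least 5 TPM. Among all tested genes 66.2% were lower and 13.4% had an unadjusted p under 0.05. Macrophage, dendritic and other myeloid cell markers, cells that share Pecam1, summed to 899 to 1686 TPM over 15 genes against 615 to 1735 TPM. Most of each sum came from Lyz2, whereas Csf1r lay at or below 0.745 TPM. Although these sums overlapped, 8 of 8 tested genes of that list were higher at 18 months, with a median of 0.70. By limma 0 passed, and 2 (Chil3 and S100a8) had an unadjusted p under 0.05. Chil3, a chitinase-like protein of alveolar macrophages, had 141, 391 and 249 TPM in the older libraries, compared with 26.7, 31.4 and 140 TPM in the younger ones. Its ages did not overlap, by a narrow margin set by the third 8-month library, and its log2 difference was 2.26 (limma adjusted p = 0.195). With each library left out in turn the median of the list lay between 0.40 (without the first 8-month library) and 1.10 (without the third). With library weights 7 of 8 were higher. The count also depended on which genes passed the filter on mean TPM. With no filter 12 of 15 were higher, with a median of 0.37. Without the first or without the second 18-month library, 8 of the 10 genes then tested were higher. Platelet and red cell genes summed to 341 to 734 TPM over 11 genes against 342 to 1893 TPM, and lymphocyte genes to 31.4 to 38.7 TPM over 13 found of 15 against 25.2 to 82.3 TPM. Of 9 tested platelet and red cell genes 9 were lower, but without the third 8-month library 8 of 9 were higher, and without the third 18-month library 6 of 9. Lymphocyte genes were split 5 to 5, as were epithelial genes. Epithelial genes summed to 9593 to 19429 TPM over 12 genes against 11117 to 20303 TPM, most of it from Scgb1a1 and Sftpc, whereas Epcam lay between 0.292 and 1.38 TPM. The third 8-month library had the highest sums for macrophage, lymphocyte, red cell and epithelial genes. For macrophage genes its sum was 1735 TPM, compared with 1478 and 1686 TPM in the first and second 18-month libraries. For epithelial genes its sum was 20303 TPM, compared with 19429 TPM in the first 18-month library. Which cells the Lyz2 came from was not tested. The third 8-month library also had the lowest Egfl7 and Mcam. Without the third 8-month library the Ecscr difference was 0.86 (limma adjusted p = 0.137). That fit kept the first and second 18-month libraries, whose epithelial genes summed to 19429 and 16751 TPM. The part of these other cells in the member values, Ecscr included, was not tested.

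To describe what the members shared across libraries, each gene's log2 values were centred on their mean over the 6 libraries and averaged over the 9 members. Pecam1 lay closest to that average, at a root mean square distance of 0.08, and Ecscr farthest, at 0.41, while the other 7 lay between 0.10 and 0.18. Among 2782 other genes averaging 50 TPM or more, the 5 with the closest profile were Gnl2 at 0.020, Il10rb at 0.025, Hmgb1 at 0.031, Ssrp1 at 0.032 and Phactr1 at 0.033, where the median gene was at 0.144. The average profile was nearly flat, between -0.078 in the third 8-month library and 0.065 in the third 18-month library, so likeness here means a level that hardly varied.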

How the data were processed

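RNA from 6 libraries of sorted lung endothelial cells (3 at 18 months, 3 at 8 months) was analysed. Per the labels' protocols, 10 ng of total RNA went into each SMARTer Ultra Low library, with 100 bp reads from both ends. The deposited values are TPM per Ensembl gene, made by the authors with kallisto and build mm10, per the submitters' processing notes. The sources used here give neither its version nor the transcript set nor the use of strand. The table sums to between 869315 and 876126 TPM per library. The depth is unknown.

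Symbols came from GENCODE M21 (GRCm38, also named mm10), with 24298 identifiers matched and 222 not. Genes averaging 1 TPM or more were tested as log2(TPM + 1) with limma 3.58.1 in R 4.3.3 (intensity trend, age as the sole term, 2-sided, Benjamini-Hochberg over all 12748 genes, threshold 0.05), which was tested on simulated data. Log2 differences are on that scale. Members and lists were chosen with earlier results of these data known. All members were named, with up to 4 genes per list by unadjusted p, 8 other pan-endothelial genes by level, 5 genes by likeness and genes overlapping a member. Mmrn2, Lama4, Heg1, Apln, Ets1, Fli1, Erg, Prox1, Pdpn, Lyz2, Csf1r, Scgb1a1, Sftpc and Epcam were named after their values were seen. Alternatives were other pseudocounts, filters and scalings, no trend, library weights, a replicate block, each library left out, and a loess correction (span 0.75) for GC content and length. 1 further gene list is not reported here.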

Additional observations from a re-analysis of the deposited data

How the results depend on the processing

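The number of genes past the threshold, 3 in the main analysis, was 0 with no filter, 16 under median-of-ratios scaling, 16 under quantile normalization, 94 with library weights, 5 with the GC and length correction, and 0 to 2 with 1 library left out, being 1 without the first 8-month library, 2 without the third and 0 without any of the other 4. The number of members past it was 1 with library weights and 0 in the other 17 alternatives. The median of the members, -0.011, was 0.087 with median-of-ratios scaling, 0.063 with the GC and length correction with or without the replicate block, and -0.069 to 0.027 with 1 library left out. Ecscr and Cd34 kept their sign in all alternatives. Changes of sign in the others were Emcn to 0.064 under median-of-ratios scaling, 0.011 with quantile normalization, 0.091 with library weights and 0.0087 with the GC and length correction, Clec14a to 0.087, 0.039, 0.075 and 0.063 in the same order, Egfl7 to 0.042 and Robo4 to 0.018 with the GC and length correction, and Rasip1 to -0.069 with library weights. With the replicate block added to that correction the values were the same for these genes. With 1 library left out the log2 difference was -0.043 to 0.035 for Pecam1, -0.14 to 0.090 for Emcn, -0.14 to 0.13 for Clec14a, -0.0099 to 0.21 for Mcam and -0.045 to 0.075 for Rasip1. The causes of these changes were not tested. The replicate number pairs no samples by the labels, and the deviations of same-numbered libraries correlated at -0.012, -0.090 and 0.057 across genes. The replicate block gave 0 genes past the threshold (1445 at an unadjusted p under 0.05), 0 with the GC and length correction added, and a limma adjusted p of 0.183 for Ecscr. With 3 libraries per age and unknown depth, differences may have been missed, and not only small ones. The intervals given are for single genes, whereas the threshold applies to p adjusted over all tested genes. In the main analysis Ecscr at 0.80 (interval 0.53 to 1.06) did not pass (limma adjusted p = 0.0786). Nor did Eng at -0.79 (interval -1.17 to -0.41, limma adjusted p = 0.145). A member that did not pass may therefore still differ between the ages.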
